A study of Mus musculus with 26 samples.

Results

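Germline genes are copied into RNA in primordial germ cells, spermatocytes, or oocytes and are kept off in most other tissues. The 9 genes described here, *Dazl*, *Ddx4*, *Sycp1*, *Sycp3*, *Mael*, *Hormad1*, *Slc25a31*, *Tex101*, and *Tdrkh*, were chosen by name as germline genes that are known for silencing by promoter methylation. Of the 9 genes, 8 are among the 15646 genes of the RNA-seq table, and the same 8 have a baited promoter fragment among the 19022 that the promoter Capture Hi-C (PCHi-C) lists name. *Sycp1* has no RNA value and no bait in these files, so only its promoter sequence is described. No methylation was measured in the data used here, and the word "silencing" was checked against RNA alone.

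The series compares 3 pluripotent cell states of the mouse. Wild-type (WT) ESCs were E14Tg2a cells of the 129P2/OlaHsd background, grown on gelatin with serum and LIF. Nanog-/- ESCs were the line RCNβH-B(t), derived from E14Tg2a and used at passages 20 to 30, in the same medium, with hygromycin during expansion to select cells without *Nanog*. EpiSCs were embryo-derived 129S2 cells kept on fibronectin in N2B27 medium with Activin A and bFGF. The strain entry of the labels reads C57BL/6 for every RNA-seq sample, which differs from these growth descriptions. Each state is thus represented by 1 line, and strain, medium, and origin differ together between EpiSCs and ESCs and cannot be told apart from the state. RNA-seq was labelled for 3 WT, 4 EpiSC, and 3 Nanog-/- samples, and PCHi-C for 5, 2, and 5 sequencing lanes. The RNA table holds 1 median per state and the PCHi-C lists 1 combined list per state, so no value below has a replicate error and these values allow no test of their own. The deposited table also holds fold changes and p-values of the authors' own comparisons, which were not used here. All differences are descriptions.

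In somatic lineages, germline promoters that are rich in CpG gain DNA methylation around implantation, mainly through DNMT3B, and the methylated promoter stays off. Before and beside methylation, a variant Polycomb complex called PRC1.6 holds many of them down: its subunits E2F6 and MGA bind E2F-type sites and E-boxes, and L3MBTL2 and PCGF6 belong to it. The H3K9 methyltransferase SETDB1 is also known to repress germline genes in ESCs. Mouse ESCs in serum are known to express some of these genes at low or moderate levels, and EpiSCs are a model of the epiblast after implantation.

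The promoters of 6 of the genes are shown because they hold the contrasts described below: 5 genes that were low in EpiSCs, with and without the motifs of the PRC1.6 subunits, and *Tdrkh*, which was high there. Each is the RefSeq window (GRCm38.p6) from 250 bases before to 50 bases after the annotated start, read 5′ to 3′ on the strand of the gene. Capitals mark the E2F6-type motif GCGGGAA, or its reverse complement TTCCCGC, and the E-box CACGTG, which is its own reverse complement.
Ddx4, chr13:112652261-112652560, minus strand: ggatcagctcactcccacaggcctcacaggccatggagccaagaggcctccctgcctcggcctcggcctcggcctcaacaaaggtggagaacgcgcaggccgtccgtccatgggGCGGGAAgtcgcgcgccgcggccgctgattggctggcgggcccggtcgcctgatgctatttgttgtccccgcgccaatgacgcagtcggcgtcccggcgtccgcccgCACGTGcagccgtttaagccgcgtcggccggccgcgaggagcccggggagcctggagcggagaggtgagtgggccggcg
Dazl, chr17:50293571-50293870, minus strand: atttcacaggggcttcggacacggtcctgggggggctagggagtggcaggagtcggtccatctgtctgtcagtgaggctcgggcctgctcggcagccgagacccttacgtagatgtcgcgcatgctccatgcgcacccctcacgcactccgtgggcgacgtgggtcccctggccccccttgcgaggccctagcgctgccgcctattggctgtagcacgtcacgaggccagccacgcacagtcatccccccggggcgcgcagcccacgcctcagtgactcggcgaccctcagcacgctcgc
Sycp3, chr10:88459337-88459636, plus strand: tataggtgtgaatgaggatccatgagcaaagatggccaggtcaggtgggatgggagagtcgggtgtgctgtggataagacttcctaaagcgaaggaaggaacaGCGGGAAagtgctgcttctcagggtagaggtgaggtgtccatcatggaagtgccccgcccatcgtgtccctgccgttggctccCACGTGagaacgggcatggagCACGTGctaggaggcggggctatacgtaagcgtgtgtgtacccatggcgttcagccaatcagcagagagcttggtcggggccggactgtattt
Hormad1, chr3:95559427-95559726, plus strand: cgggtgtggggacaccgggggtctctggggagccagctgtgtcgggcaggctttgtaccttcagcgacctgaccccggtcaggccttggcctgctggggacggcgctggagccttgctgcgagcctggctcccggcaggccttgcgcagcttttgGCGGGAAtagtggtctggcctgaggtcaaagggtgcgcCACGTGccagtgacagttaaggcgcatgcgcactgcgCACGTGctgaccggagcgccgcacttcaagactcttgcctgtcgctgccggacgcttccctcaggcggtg
Mael, chr1:166238695-166238994, minus strand: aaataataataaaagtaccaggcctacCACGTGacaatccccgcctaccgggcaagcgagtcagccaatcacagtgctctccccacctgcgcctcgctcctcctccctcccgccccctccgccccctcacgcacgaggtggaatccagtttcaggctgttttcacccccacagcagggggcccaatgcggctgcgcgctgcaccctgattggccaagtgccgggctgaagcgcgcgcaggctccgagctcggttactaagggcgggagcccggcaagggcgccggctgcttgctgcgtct
Tdrkh, chr3:94412994-94413293, plus strand: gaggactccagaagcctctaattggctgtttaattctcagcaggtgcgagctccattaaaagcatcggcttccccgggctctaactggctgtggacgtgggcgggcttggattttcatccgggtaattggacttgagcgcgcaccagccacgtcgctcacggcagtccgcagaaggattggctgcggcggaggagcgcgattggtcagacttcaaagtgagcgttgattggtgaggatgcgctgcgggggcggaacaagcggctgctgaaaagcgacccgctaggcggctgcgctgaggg

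All 9 promoter windows were rich in CpG. The ratio of observed to expected CpG ran from 0.67 in *Sycp3* to 0.98 in *Ddx4*, with a median of 0.80, beside a median of 0.39 (quartiles 0.17 and 0.75) over the windows of 27025 genes. Each of the 9 lay between the percentiles 67.8 and 92.7 of all genes. The 34 other germline genes with a window, out of 41 in the RNA table, had a median of 0.54.

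The E2F6-type motif was present in 4 of the 9 windows, those of *Ddx4*, *Sycp3*, *Hormad1*, and *Slc25a31*, and in 4.66% of all windows. The E-box was present in these 4 and in *Sycp1* and *Mael*, 6 of 9 in all, beside 7.24% of all windows. The windows with both motifs were therefore 4 of 9, and 0.463% of all windows held both. Each motif contains a CpG, and the 9 windows held a median of 24 CpG beside 7 over all windows. Shares among windows of like CpG content were not computed, so the part of CpG content in these counts was not tested. In *Hormad1* the E2F6-type motif began at −95, counted from the start, and E-boxes began at −57 and −20. In *Sycp3* the E2F6-type motif began at −147 and the E-boxes at −64 and −43. In *Ddx4* the motifs began at −136 and −29, and in *Slc25a31* the E-box began at −93 and the E2F6-type motif at 20, after the start. *Dazl*, *Tex101*, and *Tdrkh* held neither motif in the window. Of the 34 other germline genes, 3 held the E2F6-type motif, 10 held the E-box, and 1 held both. The genes were chosen by name from a well-studied set, and a match of letters shows no binding.

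**Figure D1:**
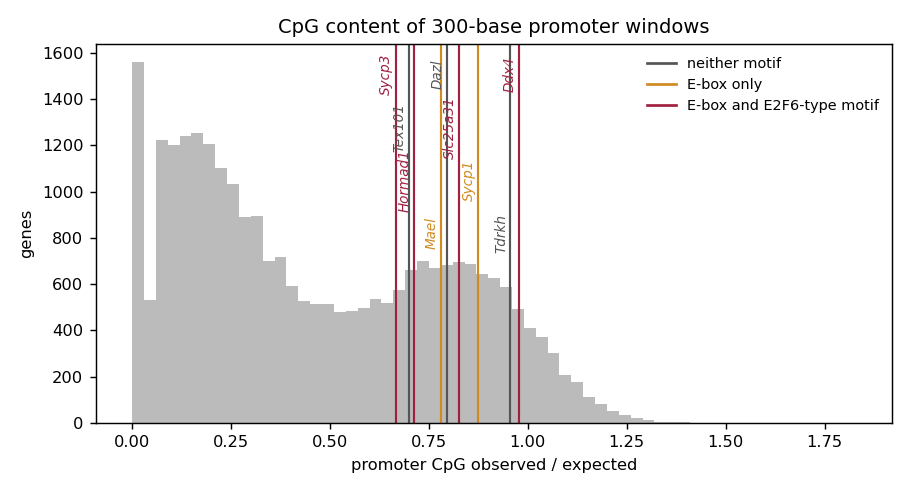
Ratio of observed to expected CpG (x axis) in the 300-base promoter windows of 27025 mouse genes (grey bars, number of genes on the y axis) and of the 9 germline genes (vertical lines, coloured by the motifs present). The 9 lines lie between 0.67 and 0.98, in the upper of the peaks of the distribution, and *Tdrkh* and *Ddx4*, with the highest ratios, differ in their motifs.

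The labels of the cell states were checked first. *Nanog*, the targeted gene, was at 418 RPKM in WT ESCs, 22.3 in Nanog-/- ESCs, and 191 in EpiSCs after scaling, and its difference in Nanog-/- ESCs was the largest decrease among all genes of the table. RPKM is the number of reads scaled to gene length and library size. EpiSC values were divided by 1.89, the median ratio of EpiSC to WT ESC over the 9077 genes at 1 RPKM or more in both states. Without this step, the median of all genes is shifted up by 0.46 on the log2(RPKM + 1) scale. The shares of all genes past 2-fold in EpiSCs given below are for scaled values only. They are no background for counts with EpiSC values as deposited. Naive ESC markers were lower past 2-fold in EpiSCs for 6 of 6 genes measured, among them *Esrrb* (210 RPKM to 0.411), beside 9.66% of all genes. Primed markers were higher for 4 of 7, among them *T* (3.37 RPKM to 236), beside 10.4% of all genes. The summed RPKM of 6 primordial germ cell markers was 156 in WT ESCs, 57.2 in Nanog-/- ESCs, and 8.84 in EpiSCs. The sum of 3 fibroblast markers was 41.2 in WT ESCs, 148 in EpiSCs, and 49.2 without NANOG, in the same order that of 2 neural markers was 13.3, 145, and 14.3, and that of 4 primitive endoderm markers 3.0, 16.9, and 50.1. Single markers differed from these sums. *Nes* made up most of the neural sum, at 11.8 RPKM in WT ESCs and 144 in EpiSCs. *Pax6* (1.45 RPKM to 1.07) and *Gata4* (1.29 to 0.518) were lower in EpiSCs, and *Thy1* was within 2-fold (20.5 to 26.4). None of these fibroblast, neural, and primitive endoderm markers was listed at 0 in any state. None of the 6 markers of 2-cell-like cells was in the table. The part of such cells in the differences below was not tested, and fewer expressing cells cannot be told apart from less RNA per cell.

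The EpiSC column also stood apart in genes outside these lists. *Gapdh* was at 1016 RPKM in WT ESCs and 63.1 in EpiSCs, and *Ppia* at 426 and 6.57, while *Actb* was at 799 and 833. *Hprt* was at 1.35 RPKM in WT ESCs, 4.81 in Nanog-/- ESCs, and 163 in EpiSCs, and E14Tg2a is known to be deficient in *Hprt*. Of the 1512 genes lower past 2-fold in EpiSCs, 11.1% have a name of Gm and a number, given to predicted genes and many processed gene copies, beside 1.90% of the 1633 that were higher. The RNA libraries were sequenced with 50 or 100 bases per read, by the labels, which do not say which sample had which. The part of read length in the EpiSC differences was not tested.

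Of the 8 germline genes with an RNA value, 8 were at 1 RPKM or more in WT ESCs, 8 in Nanog-/- ESCs, and 2 in EpiSCs. Of all 15646 genes, 9748, 9923, and 9629 were, in the same order. In EpiSCs, 6 of the 8 were lower past 2-fold, beside 9.66% of all genes, and 1 was higher, beside 10.4% (7 of 8 against 20.1% in either direction). The 6 genes that passed from at least 1 RPKM in WT ESCs to under 1 in EpiSCs, *Dazl*, *Ddx4*, *Mael*, *Hormad1*, *Slc25a31*, and *Tex101*, compare with 9.26% of the 9748 genes at that level in WT ESCs. The median difference of the 8 genes was −3.32 on the log2(RPKM + 1) scale, with a median of 0.00 over all genes. The pseudocount of 1 RPKM understates differences of low genes. The label of silenced genes was thus met in EpiSCs by 6 of the 8, and in neither ESC line by any of them.

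**Figure D2:**
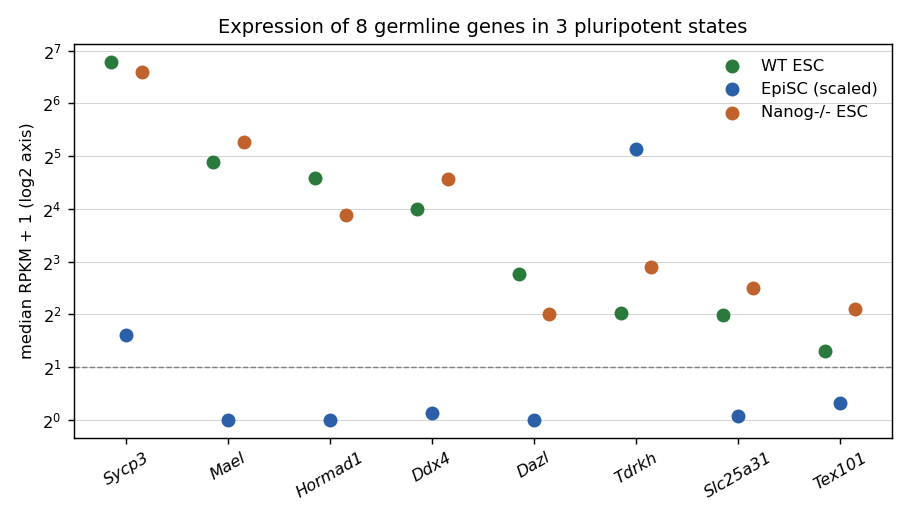
Median RPKM plus 1 (log2 y axis) of the 8 germline genes with an RNA value in WT ESCs (green), EpiSCs (blue, scaled) and Nanog-/- ESCs (orange), 1 point per state and no error because the table holds medians. The dashed line stands at 1 RPKM, and the blue points of 6 genes lie below it, while *Tdrkh* alone has its highest point in EpiSCs.

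The first pair encodes RNA-binding proteins of germ cells. *Ddx4* (Vasa homologue), an RNA helicase of germ granules, was at 15.0 RPKM in WT ESCs, 22.8 in Nanog-/- ESCs, and 0.0864 in EpiSCs. *Dazl*, which controls the translation of germ cell mRNAs, was at 5.76 RPKM in WT ESCs and 3.03 in Nanog-/- ESCs and was listed at 0 in EpiSCs. Both were therefore present in the ESC lines and at or near 0 in EpiSCs, with differences of −3.88 for *Ddx4* and −2.76 for *Dazl* on the log2(RPKM + 1) scale. In EpiSCs, 2185 genes of the table, or 14.0%, were listed at 0, beside 2060 genes in WT ESCs, and 0 of 6 housekeeping genes were. These 6 were at 1.35 to 1016 RPKM in WT ESCs and 6.57 to 833 in EpiSCs. They therefore do not show how reliable a listing at 0 is for genes at lower levels.

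The synaptonemal complex and meiotic chromosome axis held the gene with the highest level. *Sycp3*, a structural protein of the axis, was at 109.5 RPKM in WT ESCs, 95.2 in Nanog-/- ESCs, and 2.04 in EpiSCs, a 53.6-fold lower RPKM in EpiSCs than in WT ESCs. Its WT ESC level lay at percentile 94.3 of all genes, and its EpiSC level at percentile 43.2. *Sycp3* was thus lower past 2-fold in EpiSCs but stayed above 1 RPKM there. The *Sycp3* gene body overlaps *Chpt1* on the other strand, which was at 10.4, 3.75, and 9.82 RPKM in WT ESCs, EpiSCs, and Nanog-/- ESCs, and the library kit does not keep the strand. *Hormad1*, an axis protein that monitors chromosome pairing, was at 23.0 RPKM in WT ESCs and 13.7 in Nanog-/- ESCs and was listed at 0 in EpiSCs, a difference of −4.58 on the log2(RPKM + 1) scale.

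*Mael* and *Tdrkh*, which act in the piRNA pathway, went in opposite directions. *Mael*, which acts in the silencing of transposons by piRNAs, was at 28.6 RPKM in WT ESCs and 37.3 in Nanog-/- ESCs and was listed at 0 in EpiSCs, a difference of −4.89. *Tdrkh*, a Tudor protein of mitochondria that is needed to trim piRNA precursors, was at 3.05 RPKM in WT ESCs, 6.44 in Nanog-/- ESCs, and 34.0 in EpiSCs. Its EpiSC level was 11.2-fold above that of WT ESCs, and its log2(RPKM + 1) difference of 3.11 was the 70th largest increase of the 15646 genes. *Tdrkh* was the only one of the 8 genes whose RPKM was higher in EpiSCs than in WT ESCs. The gene overlaps *Oaz3*, a testis antizyme on the other strand, which was at 0.168 RPKM in WT ESCs, 0.273 in Nanog-/- ESCs, and 3.50 in EpiSCs.

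The remaining genes were low in all states. *Slc25a31*, the ADP/ATP carrier of testis mitochondria, was at 2.95 RPKM in WT ESCs, 4.62 in Nanog-/- ESCs, and 0.0442 in EpiSCs, a difference of −1.92. *Tex101*, a membrane-anchored glycoprotein of germ cells, was at 1.46 RPKM in WT ESCs, 3.27 in Nanog-/- ESCs, and 0.240 in EpiSCs. Its difference of −0.99 lay just short of 2-fold, and with a pseudocount of 0.1 or 0.01 RPKM the count of lower genes was 7 of 8.

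The same 8 genes were also on in the absence of NANOG. In Nanog-/- ESCs, 0 of the 8 were past 2-fold in either direction, beside 3.04% of all genes (1.35% lower and 1.69% higher). None of the 8 was under 1 RPKM, beside 2.59% of the genes at that level in WT ESCs. Of the 8, *Mael*, *Slc25a31*, *Ddx4*, *Tex101*, and *Tdrkh* were higher, by 0.37 to 0.88 on the log2(RPKM + 1) scale, and *Dazl* (−0.75), *Hormad1* (−0.70), and *Sycp3* (−0.20) were lower. The median difference was 0.44, beside 0.01 over all genes. As ratios of RPKM, *Tex101* and *Tdrkh* were 2.23-fold and 2.11-fold higher, and with a pseudocount of 0.1 or 0.01 these 2 genes counted as past 2-fold.

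**Figure D3:**
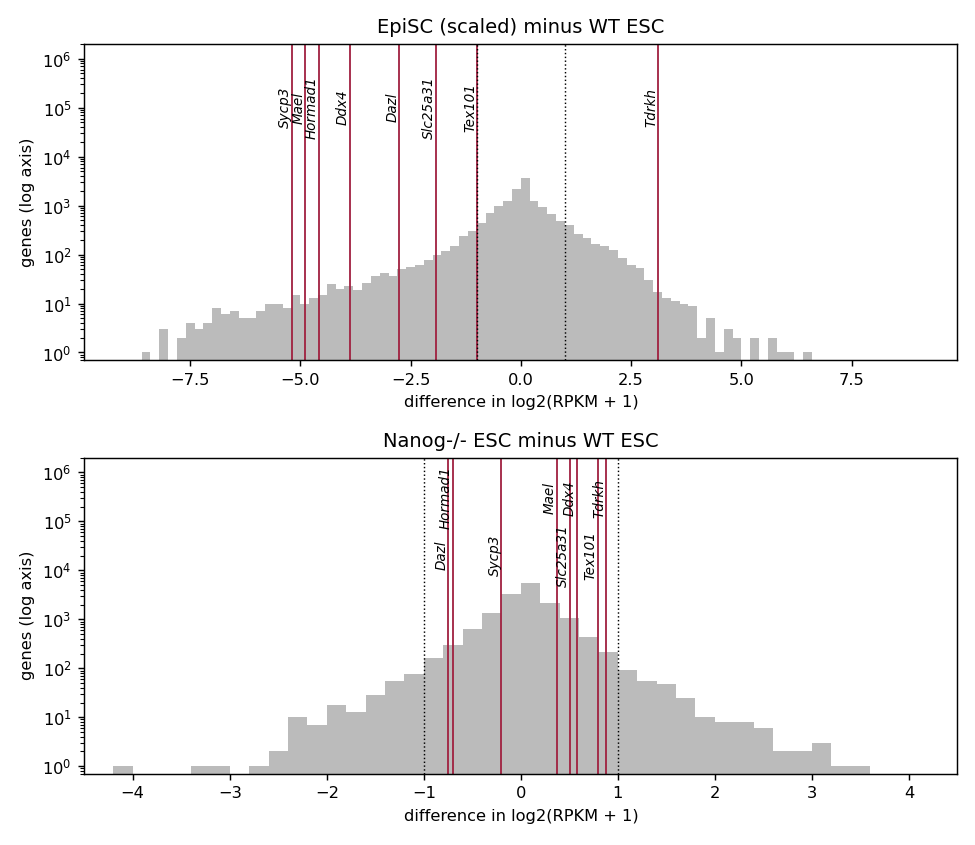
Difference in log2(RPKM + 1) from WT ESCs (x axis) for all 15646 genes (grey bars, number of genes on a log y axis) and for the 8 germline genes (red lines), with EpiSCs above and Nanog-/- ESCs below, each with its own x range. Dotted lines mark 2-fold, and in EpiSCs 6 genes lie past it on the left and *Tdrkh* on the right, while in Nanog-/- ESCs all 8 lie between the dotted lines.

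Most other genes of the germline program that were on in WT ESCs were lower in EpiSCs. Of a list of 51 other germline genes, 41 were in the table, 27 were at 1 RPKM or more in WT ESCs, and 3 were in EpiSCs. Of all 15646 genes, 9748 and 9629 were. In EpiSCs, 26 of the 41 were lower past 2-fold and 0 were higher, beside 9.66% and 10.4% of all genes. The median difference of the 41 was −1.30. With the EpiSC values as deposited, without scaling, 23 were lower and 2, *Spo11* and *Prdm9*, were higher. The share of all genes was not computed for that setting. The largest differences were those of *Tex19.1* (67.4 RPKM to 0.592), *Tdrd12*, a Tudor protein of the piRNA pathway (50.8 to 0.467), *Rnf17* (25.1 to 0.146), and *Sohlh2*, a germ cell transcription factor (18.9 RPKM in WT ESCs and listed at 0 in EpiSCs). The 3 genes at or above 1 RPKM in EpiSCs were *Syce2* (32.8 RPKM, 79.3 in WT ESCs), *Tex15* (2.19 and 2.16), and *Prdm9* (1.40 and 0.675).

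Without NANOG, 4 of the 41 were lower past 2-fold and 2 were higher, beside 1.35% and 1.69% of all genes. The lower genes were *Ldhc* (5.32 RPKM in WT ESCs and 0.359 in Nanog-/- ESCs), *Tdrd12* (50.8 and 10.5), the meiotic cohesin *Smc1b* (14.8 and 2.76), and *Hormad2* (4.04 and 0.443). *Hormad2*, the paralogue of *Hormad1*, thus differed by −1.81 and *Hormad1* by −0.70 on the log2(RPKM + 1) scale. The higher genes were *Stra8*, which is induced at the entry into meiosis (6.16 RPKM and 42.3), and *Taf7l* (1.98 and 7.46).

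Among the 9 genes for DNA methylation and its removal, 4 were lower past 2-fold in EpiSCs and 1 was higher, beside 9.66% and 10.4% of all genes. *Dnmt3l*, the cofactor of de novo methylation, was at 183 RPKM in WT ESCs, 392 in Nanog-/- ESCs, and 0.436 in EpiSCs. The maintenance genes *Dnmt1* (172, 108, and 129.6 RPKM in WT ESCs, EpiSCs, and Nanog-/- ESCs) and *Uhrf1* (221, 119, and 185) stayed within 2-fold, as did the de novo enzyme *Dnmt3b* (210.2, 143.6, and 183). *Dnmt3a*, the other de novo enzyme, was at 21.1 RPKM in WT ESCs, 61.6 in Nanog-/- ESCs, and 23.5 in EpiSCs. In Nanog-/- ESCs, *Dnmt3a* and *Dnmt3l* were the 2 genes of this list past 2-fold from WT ESCs. Both were higher, beside 1.69% of all genes. The enzymes that oxidise or excise methylated cytosine were mostly lower in EpiSCs: *Tet1* was at 100.4 RPKM in WT ESCs and 18.0 in EpiSCs, *Tet2* at 24.7 and 4.14, and *Tdg* at 39.3 and 15.3. *Tet3* was higher, at 1.39 and 9.37 RPKM, and these 4 genes were within 2-fold in Nanog-/- ESCs on the log2(RPKM + 1) scale (119, 16.1, 43.4, and 2.94 RPKM for *Tet1*, *Tet2*, *Tdg*, and *Tet3*). With the deposited EpiSC values, *Tdg* was within 2-fold, *Dnmt3a* was past 2-fold higher, and *Dnmt1*, *Uhrf1*, and *Dnmt3b* were above WT ESCs and within 2-fold.

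Of 22 genes for PRC1.6 and repressors that act through H3K9 or histone deacetylation, 18 were in the table, and all 18 were above 1 RPKM in each state. In EpiSCs, 3 were higher past 2-fold, beside 10.4% of all genes, and 4 were lower, beside 9.66%. The higher ones were *Yaf2* (10.2 RPKM to 35.0), *E2f6* (20.3 to 63.96), and *Ring1* (4.39 to 13.5), all subunits of PRC1.6. The lower ones were *Hdac1* (158 to 19.6), *Zfp57* (112 to 38.4), *L3mbtl2* (66.2 to 28.5), and *Trim28* (970.2 to 438). Of the 18, 0 passed 2-fold in Nanog-/- ESCs, beside 3.04% of all genes, and *E2f6* was at 34.6 RPKM. *Setdb1* was not in the table. These counts depend on the scaling: with the EpiSC values as deposited, 1 of the 18, *Hdac1*, was lower past 2-fold and 6 were higher, *Rnf2*, *Kdm5c*, and *Hdac2* beside the 3 above. As deposited, the median difference of all genes is 0.46, and the share of all genes past 2-fold was not computed.

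PCHi-C lists the pairs of HindIII fragments that were joined by ligation more often than the distance between them would give, with the number of reads and a CHiCAGO score, where 5 is the lowest listed. The germline promoters had 51 different contacts over the 3 lists, all within their chromosome, between 9.27 and 564 kb away and with 4 to 90 reads. Of these, 38 were in the WT ESC list, 24 in the EpiSC list, and 12 in the Nanog-/- ESC list. For all baits, the sum of contacts in EpiSCs was 83.6% of that in WT ESCs, and in Nanog-/- ESCs 73.9%, while for the 8 germline baits the shares were 63.2% and 31.6%. For the 885 baits of genes that passed from on in WT ESCs to off in EpiSCs, the shares were 82.2% and 77.0%, and for the 4797 baits of genes under 1 RPKM in all states 72.9% and 69.1%.

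The order of these shares depended on the score. With a score of at least 7 the germline baits kept 17, 6, and 8 contacts in the lists of WT ESCs, EpiSCs, and Nanog-/- ESCs, and with a score of at least 10 they kept 4, 0, and 3. The sums over baits above count a contact between baits once for each bait. Counted once per pair of fragments, all listed contacts in EpiSCs and Nanog-/- ESCs were 86.9% and 74.6% of those in WT ESCs. These shares were 87.4% and 80.2% at a score of at least 7, and 89.8% and 87.5% at a score of at least 10. The lists differ in the number of all contacts (100492, 87369, and 74931) and in median reads per contact (13, 11, and 11), and depth was not separated from the state. In the same order, the median distance of all contacts was 139, 141, and 74.1 kb, so the Nanog-/- ESC list was shorter in range throughout. For the germline contacts it was 148, 88.6, and 22.1 kb.

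**Figure D4:**
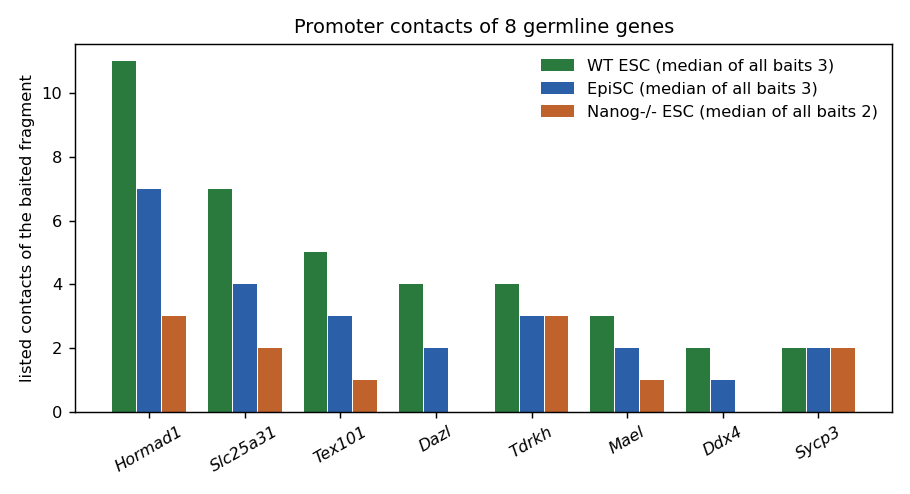
Number of listed contacts (y axis) of the baited promoter fragment of each of 8 germline genes in WT ESCs (green), EpiSCs (blue) and Nanog-/- ESCs (orange), with no error because replicates were combined. *Hormad1* has the most, 11, 7, and 3, and *Dazl* and *Ddx4* have none in Nanog-/- ESCs.

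The promoter of *Hormad1* (bait chr3:95547736-95562424) had the most contacts, 15 different ones over the 3 lists. In WT ESCs it had 11, beside a median of 3 per bait. The closest, 9.27 kb between fragment midpoints, was to an exon of the neighbouring *Ctss* and was found in all lists with 90, 62, and 50 reads in WT ESCs, EpiSCs, and Nanog-/- ESCs (scores 7.35, 6.66, and 8.35). The second contact found in all lists reached into an intron of *Hormad1* itself at 18.2 kb, with 60, 33, and 28 reads and scores of 10.03, 5.80, and 8.44. These contacts lie next to a bait fragment of 14.7 kb. Over all contacts of each list, the median distance was 139 kb in WT ESCs, 74.1 kb in Nanog-/- ESCs, and 141 kb in EpiSCs. The contacts of the bait beyond 100 kb numbered 5 in WT ESCs, 0 in Nanog-/- ESCs, and 1 in EpiSCs. In WT ESCs they included the *Rprd2* gene, at 209.5 and 210.8 kb with 9 reads each, and the bait of *Cers2*, named Lass2 in the lists, at 239 kb with 5 reads. Of these, the fragment at 209.5 kb was also listed in EpiSCs, with 6 reads. In EpiSCs, whose *Hormad1* RNA was listed at 0, the highest score of the bait was 6.66, in WT ESCs 10.03, and in Nanog-/- ESCs 8.44. A contact with *Ctss* at 13.7 kb was listed in EpiSCs (42 reads, score 5.94) and Nanog-/- ESCs (28 reads, 5.44) and not in WT ESCs. The WT ESC list alone held a contact with a nearby *Ctss* fragment at 10.4 kb (81 reads, score 7.72).

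*Sycp3* had 2 contacts in each list, and all of them joined it to another baited promoter. The one in all lists was with *Arl1*, a small GTPase gene of the Golgi, at 274 kb, with 11, 4, and 6 reads and scores of 15.38, 7.14, and 11.27. *Arl1* was at 68.4, 82.6, and 71.8 RPKM in WT ESCs, EpiSCs, and Nanog-/- ESCs. The level of the partner was therefore within 2-fold across the states in which *Sycp3* ran from 109.5 to 2.04 RPKM, while with EpiSC values as deposited *Arl1* was past 2-fold higher there. A contact with *Spic* at 231 kb was listed in EpiSCs (5 reads, score 8.71) and Nanog-/- ESCs (4 reads, 6.33), where *Spic* was at 0.101 and 0.390 RPKM, and not in WT ESCs, where it was at 1.64. A contact with *Mybpc1* at 147 kb was listed in WT ESCs alone (8 reads, 7.06).

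The contacts of *Dazl* and *Ddx4* were distant, at 338 kb or more, with 4 and 2 of them in the WT ESC list. Of the 5 contacts of *Dazl*, 4 reached the gene *Tbc1d5* between 500.4 and 564 kb away, with 5 to 8 reads. The one in 2 lists, at 510.3 kb, had 8 reads and a score of 7.40 in WT ESCs and 5 reads and 5.03 in EpiSCs. *Ddx4* joined a fragment that carries the small nuclear RNA bait U2.49 in an intron of *Ankrd55*, 355 kb away, with 6 reads in WT ESCs (score 8.63) and 5 in EpiSCs (7.70). Its other contact was with *Cdc20b* at 389 kb in WT ESCs, with 4 reads and a score of 5.25. No contact of either gene was listed in Nanog-/- ESCs, where *Ddx4* was at its highest RPKM. For all baits, 74.7% had at least 1 contact in that list. The median distance of all its contacts was 74.1 kb, beside 139 kb in WT ESCs, so distant contacts were scarcer in it for promoters in general.

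*Mael* had 1 contact in all lists, with a fragment outside protein-coding genes at 82.0 kb, with 20, 19, and 12 reads and scores of 5.73, 5.93, and 7.51. Its highest score in EpiSCs, 6.37 with 44 reads, was with the baited promoter of *Ildr2* at 14.1 kb. *Ildr2* was at 0.365, 1.09, and 1.73 RPKM in WT ESCs, EpiSCs, and Nanog-/- ESCs.

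*Tdrkh*, the gene that was higher in EpiSCs, had 4, 3, and 3 contacts. The one in all lists, at 10.8 kb, was with a bait named Gm17179 in an exon of *Lingo4*, with 75, 47, and 38 reads and scores of 11.78, 8.79, and 11.44. In EpiSCs, the state with the highest *Tdrkh* RNA, this contact had the lowest score and a read number between the others. A contact within *Tdrkh* itself, at 12.7 kb, was listed in WT ESCs (33 reads, score 5.31) and Nanog-/- ESCs (23 reads, 7.21). The contact with *Cgn* at 371 kb was listed in WT ESCs (8 reads, score 9.26) and EpiSCs (4 reads, 5.11), and *Cgn* was at 24.9 and 9.59 RPKM there. Contacts with *Snx27* introns were at 116 kb in WT ESCs and at 95.2 kb in EpiSCs, on different fragments.

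*Slc25a31* had 10 different contacts, 6 of them with baited fragments. The one in all lists was with *Intu* at 176 kb, with 14, 12, and 10 reads and scores of 6.13, 7.92, and 8.56, and *Intu* was at 8.29, 6.47, and 6.70 RPKM. The highest score in WT ESCs was that with *Hspa4l* at 34.8 kb (15 reads, 9.80), which was at 2.02 RPKM in WT ESCs, 2.49 in Nanog-/- ESCs, and 6.79 in EpiSCs. A contact with *Plk4*, the kinase of centriole duplication, at 91.2 kb was listed in WT ESCs (12 reads, 5.32), and *Plk4* was at 26.4, 26.5, and 25.4 RPKM. A fragment outside protein-coding genes at 201 kb was shared by WT ESCs (10 reads, score 5.44) and EpiSCs (8 reads, 5.77). The other baits in contact were U1.43 at 284 kb in WT ESCs, 1700017G19Rik at 186 kb in EpiSCs, listed at 0 RPKM in all states, and AC163023.1 at 191 kb in Nanog-/- ESCs.

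*Tex101* had the highest score of the 8 baits, 16.52 with 44 reads in WT ESCs, at a fragment outside protein-coding genes 15.1 kb away. The same contact had 29 reads in EpiSCs (score 9.10) and 29 in Nanog-/- ESCs (12.72). A fragment with an exon of *Lypd3* at 19.9 kb was listed in WT ESCs (21 reads, 7.60) and EpiSCs (17 reads, 5.26). The contacts with other baits were those with *Phldb3* at 53.2 kb in WT ESCs and *Cadm4* at 181 kb in EpiSCs. The baited fragment covers the RefSeq start of *Tex101* and not the start in GENCODE, which lies outside it.

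Over all 8 baits, 7 of the 51 contacts were in all lists, 9 were in 2 lists, and 35 were in 1. No contact joined a pair of the germline promoters. Of the 38 contacts in WT ESCs, 13 were also listed in EpiSCs, or 34.2% (Wilson 95% interval 21.2% to 50.1%), beside 39.6% for all baits. The Nanog-/- ESC list shared 8 of the 38, or 21.1% (11.1% to 36.3%), beside 41.8%. In the other direction, 13 of the 24 EpiSC contacts were in the WT ESC list, or 54.2% (35.1% to 72.1%), beside 45.5% for all baits, and 8 of the 12 Nanog-/- ESC contacts, or 66.7% (39.1% to 86.2%), beside 56.0%. The lists of unequal length limit these shares, since a list of 12 contacts can hold at most 12 of the 38. The intervals cover counting error only, and contacts of 1 bait share their source. Of the 38 WT ESC contacts, 14 were in at least 1 of the other lists, or 36.8% (23.4% to 52.7%), beside 56.5% for all baits. With partners within 10 kb counted as shared, it was 23 of 38, or 60.5% (44.7% to 74.4%), beside 80.2%. The rules of these 2 shares differ. For all baits, a contact between 2 baits counted if it matched from either end, and for the germline baits only from the germline end. Of the 38, 14 were with another bait, so the 80.2% rests on a looser rule.

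The baited partners of the germline promoters numbered 19, of which 14 had an RNA value. In EpiSCs, 3 of the 14 were higher past 2-fold, beside 10.4% of all genes, and 2 were lower, beside 9.66%. The higher ones were *Ctsk* (0.656 RPKM to 9.82), *Hspa4l*, and *Cers2* (26.5 to 63.3), and the lower ones *Spic* and *Cgn*. As deposited, 6 of the 14 were higher, *Arl1*, *Cadm4*, and *Ildr2* among them, and 1, *Spic*, was lower, with no share of all genes computed for that setting. Of the 14, 0 passed 2-fold in Nanog-/- ESCs on the log2(RPKM + 1) scale, beside 3.04% of all genes. As ratios of RPKM, 2 of the 14 were over 2-fold higher, *Ctsk* and *Ildr2*, and 2 over 2-fold lower, *Cdc20b* and *Spic*. *Ctsk* and *Cers2* are partners of *Hormad1* in the WT ESC list, at 55.0 kb with 17 reads (score 7.52) and at 239 kb (5.69). Neither contact was listed in EpiSCs, where both genes were higher and *Hormad1* was listed at 0. The EpiSC list alone held a contact of *Hormad1* with another fragment that carries a *Ctsk* exon, at 46.9 kb (15 reads, score 5.02).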

How the data were processed

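RNA-seq values were the RPKM medians that the authors deposited for each state, normalized to gene length and library size. The column named BT12 was taken as Nanog-/- ESC because the design text sets ESC against BT12. Per the processing notes, Trim Galore, TopHat, and DESeq2 were used upstream. The deposited fold changes and p-values were not used. The PCHi-C lists hold the read counts and CHiCAGO scores that the authors deposited after HiCUP and CHiCAGO on combined replicates, and the notes name Bowtie 1.1.0. Where an entry joined the same fragments as another, the pair entered once, with the higher count and score. The ChIP-seq samples were not analysed here.

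Of 15741 rows, 15646 genes remained after repeated rows were merged. Differences are on the log2(RPKM + 1) scale, with EpiSC values divided by the median ratio (1.89), and 2-fold is a difference of at least 1. A gene was on at 1 RPKM. Distances are between fragment midpoints. Promoters and coordinates are in GRCm38, and windows matched by symbol for 9 of 9 members. Only 68.1% of the genes of the RNA table had a window, so motifs were not compared across that table. Scripts were tested on simulated data. Python 3.11.15, numpy 2.4.6, pandas 2.3.3, scipy 1.17.1, and matplotlib 3.10.9 were used.

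The genes, lists, and rules were chosen with earlier results of these data known. Named were all 9 genes, their top-scoring, repeated, and promoter contacts, up to 4 genes per list and direction past 2-fold, and the 3 genes nearest in pattern. Library depth is not given by the files, and the samples' number sets no error here because only medians and combined lists were deposited. The alternatives tried were other pseudocounts, scalings, levels, scores, read minimums, bait definitions, and windows.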

Additional observations from a re-analysis of the deposited data

How the results depend on the processing

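No paired analysis was possible because the files give only 1 median or 1 combined list per state, and for the same reason no replicate could be left out. The median difference of the 8 genes in EpiSCs was -3.32 with a pseudocount of 1 RPKM, -5.77 with 0.1, and -6.53 with 0.01. In Nanog-/- ESCs, the count of genes higher past 2-fold went from 0 to 2 with a pseudocount of 0.1 and also with 0.01. With a score of at least 7, the contacts numbered 17 in WT ESCs and 6 in EpiSCs, and with a score of at least 10 they numbered 4, 0, and 3 in WT ESCs, EpiSCs, and Nanog-/- ESCs. With at least 10 reads they numbered 24 in WT ESCs and 13 in EpiSCs. The share of WT ESC contacts found in another list was 60.5% when partners within 10 kb counted as shared. At a score of at least 7, the germline contacts in EpiSCs were 35.3% of those in WT ESCs, beside 87.4% for all contacts. In Nanog-/- ESCs they were 47.1%, beside 80.2%. What lay behind these changes was not tested. The other 34 planned values of counts, medians, and shares stayed within 1.5 times, or within the interval, of the reported ones. With EpiSC values as deposited, 5 of 6 primordial germ cell markers were lower and 6 of 7 primed markers higher past 2-fold. The share of all genes was not computed for that setting. Chosen after seeing the data, the 3 contact counts without the *Hormad1* bait were within 1.5 times of those with it, and the median difference in EpiSCs was -2.76 without *Sycp3* and -3.88 without *Tdrkh*, whose gene bodies overlap another gene. Of 48 alternative values for single genes, 12 moved by over 1.5 times, all in EpiSCs with a smaller pseudocount and none in sign. With pseudocounts of 0.1 and 0.01 RPKM these were *Dazl* (-5.87 and -9.17), *Ddx4* (-6.34 and -7.28), *Mael* (-8.16 and -11.48), *Hormad1* (-7.85 and -11.17), *Slc25a31* (-4.40 and -5.77), and *Tex101* (-2.20 and -2.56).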

Other observations

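For each germline gene with an RNA value, the 3 genes of the table with the nearest pattern were taken by Euclidean distance of log2(RPKM + 1) over the 3 states. None of the 8 genes was among the 3 nearest of another. The nearest to *Dazl* was *Rhox13*, a homeobox gene of germ cells, at a distance of 0.12, with 5.24 RPKM in WT ESCs, 3.08 in Nanog-/- ESCs, and a listing at 0 in EpiSCs. *Mep1b* and *Alpk3* came next. The nearest to *Hormad1* were 1700029P11Rik (25.2 RPKM in WT ESCs, 12.1 in Nanog-/- ESCs, and 0.0508 in EpiSCs), *D1Pas1*, a DEAD-box gene of the testis, and *Rnf17*, which is on the list of other germline genes. *Slc25a31* was nearest to Fam136b-ps, *Ccdc36*, and *Hfe2*.

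Genes with predicted names were frequent near *Ddx4* (Gm4353, *Tbx3*, and Gm7381), *Sycp3* (Gm8841, *Pla2g1b*, and Gm7964), and *Mael* (Gm5830, Gm2174, and Gm7334). The nearest to *Tdrkh* were *Zfp362* (2.80 RPKM in WT ESCs, 5.95 in Nanog-/- ESCs, and 29.6 in EpiSCs), *Sox3*, and *Sdc2*, and those nearest to *Tex101* were *Ebf1*, *Klrg2*, and *Slc13a5*. These likenesses rest on 3 medians each and carry no error.

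Primordial germ cell markers were lower past 2-fold in EpiSCs for 6 of 6 genes measured, beside 9.66% of all genes. Of the 6, *Nanos3* and *Dnd1* are also on the list of other germline genes. *Dppa3* was at 74.1 RPKM in WT ESCs, 13.6 in Nanog-/- ESCs, and 0.0320 in EpiSCs. In Nanog-/- ESCs 3 of the 6, *Dppa3*, *Prdm1* (9.54 RPKM to 3.61), and *Tfap2c* (32.8 to 15.4), were lower past 2-fold, beside 1.35% of all genes. Of the 8 germline genes above, 0 were, which is near that share. *Dazl* and *Hormad1* lay short of the cut, at 0.526 and 0.597 of their WT ESC RPKM.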
